A study of Mus musculus with 15 samples.

Results

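Glutathione and thiol antioxidant genes were followed in perigonadal fat of C57BL/6 mice, the fat depot beside the gonads, in weight loss, obese and lean animals. The genes were taken by name: every protein-coding row of the count table whose symbol belongs to the Gst, Mgst, Gpx, Prdx, Sod or Txnrd families, with Txn1, Txn2, Txnip, Cat, Gclc, Gclm, Gss, Gsr, Nqo1, Srxn1, Nfe2l2 and Keap1, and without Gpx5, a gene of the epididymis. That gave 57 genes of 35794 Entrez IDs in the table. Of these, 54 passed the filter on low counts, against 15208 genes in all, and Gsta1, Gstm3 and Gpx2 did not.

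Weight loss mice ate a 60% high-fat diet from 8 weeks of age for 5 weeks and then chow for 1 week. Obese mice ate the high-fat diet and lean mice ate chow, and the age is given as 14 weeks for all groups. That obese mice stayed on the high-fat diet in the last week is implied by the labels but not stated. The groups held 4 weight loss, 5 obese and 5 lean libraries of poly(A) RNA, and 1 further weight loss library with almost no counts was left out. Sex is not given in the labels, no mouse carries a stated transgene, and the design text calls the samples independent. Totals ran from 13924770 to 33807887 counts. Nothing in the labels ties a library to an animal, so p-values measure the spread between these samples. Levels are CPM, counts scaled to library size by TMM, with SD over libraries. Fold changes are log2 values with standard errors. P-values come from the quasi-likelihood test of edgeR, adjusted by Benjamini-Hochberg over all genes, and "passed" means an adjusted p under 0.05.

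All 9 adipocyte markers, such as Lpl and Adipoq, were expressed in every group, with a summed level of 35160 to 50980 CPM in weight loss, 33580 to 42720 CPM in obese and 35690 to 49920 CPM in lean libraries. Summed macrophage markers were 559 to 1297 CPM in weight loss, 957 to 1451 CPM in obese and 422 to 918 CPM in lean libraries, and 7 of 10 were higher in obese than in lean fat. Epididymal markers were summed at 2965 to 8653 CPM in obese replicates 2, 4 and 5 and at 3484 CPM in lean replicate 1. Elsewhere their sum was 0.790 to 63.5 CPM in weight loss libraries, 10.1 and 467 CPM in obese replicates 1 and 3 and at most 544 CPM in lean libraries. Progenitor markers, led by Dcn, summed to 1007 to 1905 CPM in weight loss, 1052 to 1452 CPM in obese and 660 to 1374 CPM in lean libraries, with 3 of 6 higher in obese than in lean fat. Group means of the summed erythrocyte markers, led by Hba-a1, were 1613 CPM in weight loss, 1528 CPM in obese and 1837 CPM in lean fat, and those of neutrophil markers, led by Cxcr2, were 32.7, 31.5 and 33.2 CPM in the same order. Mesothelial markers, led by Krt19, averaged 370.2, 368 and 309 CPM, endothelial markers, led by Pecam1, 878, 810 and 857 CPM, and muscle markers, led by Myh11, 310, 370 and 736 CPM. In obese against lean fat 2 of 5 tested neutrophil markers, 1 epididymal and 1 mesothelial marker were higher and 1 endothelial marker lower. Of the adipocyte markers 1 was higher and 1 lower there. Over all genes 5.86% were higher and 3.85% lower in that comparison. In weight loss against obese fat 1 neutrophil and 1 adipocyte marker were lower, while 0.881% of all genes were. In bulk tissue, fewer cells of a type and less RNA per cell cannot be told apart.

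Glutathione, a small thiol made by glutamate-cysteine ligase and glutathione synthetase, and the protein thiol thioredoxin supply electrons to enzymes that remove peroxides. Glutathione peroxidases and peroxiredoxins reduce peroxides, glutathione S-transferases couple glutathione to reactive lipids and foreign compounds, and superoxide dismutases turn superoxide into hydrogen peroxide. Several of these genes are targets of the transcription factor NRF2, encoded by Nfe2l2, which KEAP1 holds back in unstressed cells and which binds a DNA sequence called the antioxidant response element. In fat, the extracellular peroxidase Gpx3 is known as an abundant adipocyte product.

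Upstream sequences are shown for 5 genes whose expression the results turn on or whose response element is well studied. They cover the 250 bases before a transcript start listed by RefSeq on GRCm38.p6, 5′ to 3′ on the gene's strand. Gene spans given here run to the outermost RefSeq start, so the stretches of Prdx4 and Gstt1 lie inside those spans, at an inner start, and that of Gclm runs into its span. Gpx3 and Gstt1 passed in both comparisons with obese fat, Prdx4 and Prdx1 were higher in obese than in lean fat, and Gclm is a textbook NRF2 target. Capitals mark matches to the core of the antioxidant response element, TGACNNNGC, searched on both strands as the only motif.
Gpx3, chr11:54902604-54902853, plus strand: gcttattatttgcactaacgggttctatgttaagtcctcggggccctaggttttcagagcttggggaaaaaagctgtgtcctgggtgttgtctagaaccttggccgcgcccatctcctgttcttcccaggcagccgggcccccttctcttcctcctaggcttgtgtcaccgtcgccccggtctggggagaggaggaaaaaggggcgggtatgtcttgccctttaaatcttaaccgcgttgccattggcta
Gstt1, chr10:75797732-75797981, minus strand: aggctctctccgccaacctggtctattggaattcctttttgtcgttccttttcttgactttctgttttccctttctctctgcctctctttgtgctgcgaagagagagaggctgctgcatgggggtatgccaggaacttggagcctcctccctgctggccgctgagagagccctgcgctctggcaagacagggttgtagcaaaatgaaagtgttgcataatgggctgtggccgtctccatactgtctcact
Prdx4, chrX:155338461-155338710, minus strand: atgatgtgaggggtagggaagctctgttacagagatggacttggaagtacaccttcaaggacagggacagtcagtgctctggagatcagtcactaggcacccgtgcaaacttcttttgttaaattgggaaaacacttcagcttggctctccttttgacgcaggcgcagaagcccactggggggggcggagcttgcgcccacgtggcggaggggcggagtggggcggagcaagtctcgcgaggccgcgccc
Prdx1, chr4:116685349-116685598, plus strand: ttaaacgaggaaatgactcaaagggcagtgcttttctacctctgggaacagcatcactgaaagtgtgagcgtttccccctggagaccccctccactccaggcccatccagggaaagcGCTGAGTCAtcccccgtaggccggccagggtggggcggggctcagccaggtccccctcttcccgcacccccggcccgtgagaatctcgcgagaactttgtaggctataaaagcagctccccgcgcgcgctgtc
Gclm, chr3:122245307-122245556, plus strand: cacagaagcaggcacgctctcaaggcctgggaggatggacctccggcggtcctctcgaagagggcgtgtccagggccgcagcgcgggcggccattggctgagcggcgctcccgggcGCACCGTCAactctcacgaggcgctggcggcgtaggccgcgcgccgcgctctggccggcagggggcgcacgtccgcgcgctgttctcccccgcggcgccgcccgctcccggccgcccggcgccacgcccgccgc
Promoters were listed for 50 of the 57 genes, all but Gclc, Gsr, Gsta4, Gstt2, Prdx6, Prdx6b and Sod3. A match stood in 9 of the 50, or 18%, against 11.5% of 27025 genes in the promoter table and 13.8% of those tested here. The 9 were Nfe2l2, Gsta3, Gstm5, Gstm7, Gclm, Mgst1, Prdx1, Sod1 and Txnrd1. Of the 12 genes that passed between obese and lean fat, 9 had a listed promoter, and Prdx1 alone held a match. A match is only a run of letters and was not tested for binding.

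Between genes, levels were compared as CPM per kb of transcript, averaged over the 3 groups. The cytosolic superoxide dismutase gene Sod1 stood highest, at 1771 CPM per kb, followed by Gpx3 at 1073, the cytosolic peroxidase gene Gpx1 at 936 and the mu-class transferase gene Gstm1 at 873 CPM per kb. Gpx4, the peroxidase of membrane phospholipid hydroperoxides, followed at 517 CPM per kb and Prdx6, a peroxiredoxin that also acts on phospholipids, at 455 CPM per kb. At the other end, the genes of glutathione synthesis were low per kb, with Gss at 17.4, the catalytic ligase subunit Gclc at 4.56 and the modifier subunit Gclm at 2.42 CPM per kb. Gpx3 was second in weight loss fat at 1359 and in lean fat at 1197 CPM per kb, but in obese fat it stood at 663 CPM per kb, below Gpx1 at 814 and Gstm1 at 833 CPM per kb.

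**Figure D1:**
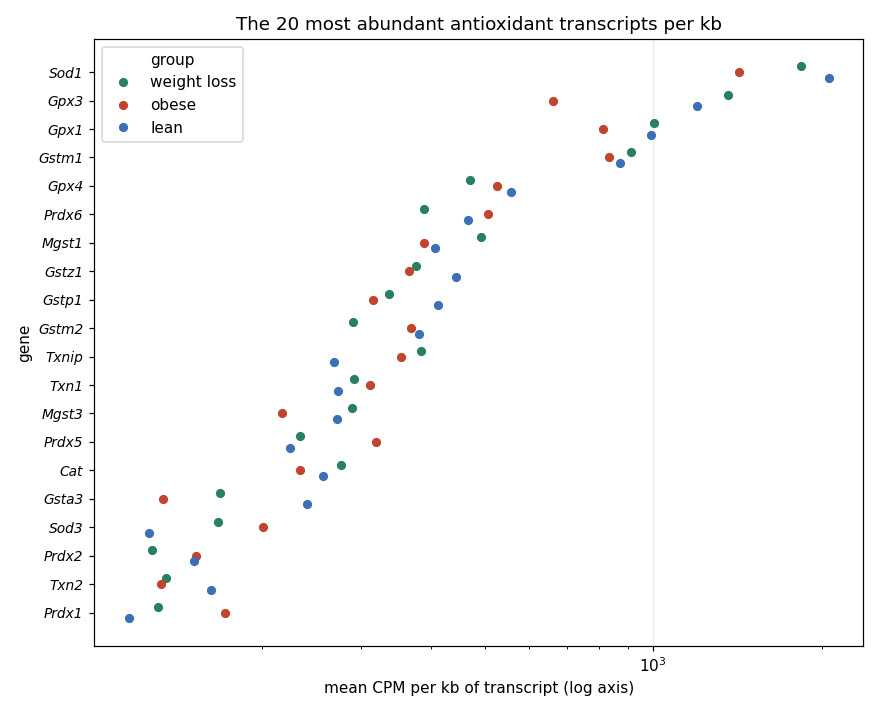
Mean CPM per kb of transcript (log axis) of the 20 genes with the highest mean over the groups, 1 point per group. Sod1 stands first at 1771 CPM per kb and Gpx3 shows a gap between obese (663) and both weight loss (1359) and lean fat (1197).

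Between obese and lean fat, 12 of the 54 tested genes passed, or 22.2%, while 9.71% of all 15208 genes did. Of the 12, 5 were higher and 7 lower in obese fat, against 5.86% of all genes higher and 3.85% lower. The secreted peroxidase Gpx3, the theta-class transferases Gstt1, Gstt2 and Gstt3, Gsta4, Gsto2 and Txnrd3 fell. The peroxidases of the endoplasmic reticulum Prdx4, Gpx7 and Gpx8, with Prdx1 and the extracellular dismutase Sod3, rose. Libraries did not overlap for 11 of the 54, or 20.4%, with 5 above and 6 below lean fat, against 10.3% of all genes, 6.04% above and 4.31% below. In the same comparison 7 of 10 macrophage and 3 of 6 progenitor markers were higher, and the summed progenitor levels overlapped. The part of these cell types in the calls was not tested. The median log2 value of the 54 genes was -0.08, against -0.02 over all genes, and 21 were above and 33 below 0.

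After weight loss, 3 of the 54 genes passed against obese fat, or 5.56%, while 1.62% of all genes did. Gpx3, Gstt1 and Gstt2 rose, and none fell, against 0.736% of all genes higher and 0.881% lower. All 3 calls were lost with the epididymal marker level as a covariate (adjusted p = 0.235, 0.389 and 0.461) and without the 4 libraries richest in those markers (0.166, 0.701 and 0.332). All 3 had been lower in obese than in lean fat, and since both comparisons use the same obese libraries, each is given with its own values. Against lean fat none of the 54 passed, while 0.0329% of all genes did.

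Gpx3 (Entrez ID 14778, chromosome 11, 54902854 to 54910387 on GRCm38, the build named mm10) encodes the extracellular glutathione peroxidase, a selenoprotein. Its level was 2173, 2125, 1855 and 2512 CPM in weight loss libraries, against 953, 908, 1025, 1515 and 883 CPM in obese and 1873, 2061, 1493, 1515 and 2597 CPM in lean libraries. Every weight loss library lay above every obese library, and obese replicate 4 reached into the lean range. Weight loss fat was 2.05-fold above obese fat, a log2 value of 1.04 ± 0.19 (adjusted p = 0.0106), and obese fat was below lean fat by a log2 value of -0.85 ± 0.18 (adjusted p = 0.00903). Between weight loss and lean fat the log2 value was 0.18 ± 0.19 (adjusted p = 0.739). Both calls held without each of the 14 libraries in turn.

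Gpx1 averaged 1075 ± 260 CPM in weight loss, 873 ± 152 CPM in obese and 1063 ± 283 CPM in lean fat. Gpx4 averaged 460 ± 224 CPM in weight loss, 513 ± 218 CPM in obese and 544 ± 127 CPM in lean fat. Neither of these selenium-dependent enzymes, the cytosolic peroxidase and that of membrane lipids, passed in any comparison. Gpx2, the peroxidase of the gut lining, had 0 counts in every lean library, which allows up to 0.134 to 0.213 CPM there (3 counts, counting error only), and no library went above 0.524 CPM.

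Gpx7 and Gpx8 encode peroxidases of the endoplasmic reticulum, where oxidative protein folding releases hydrogen peroxide. Gpx7 stood at 36.9, 42.1, 62.6, 54.5 and 60.1 CPM in obese libraries, against 35.2, 30.4, 37.2, 25.4 and 37.3 CPM in lean libraries. Only obese replicate 1 lay within the lean range. The log2 value was 0.63 ± 0.17 (adjusted p = 0.0325). Gpx8 stood at 36.1, 41.0, 50.2, 57.2 and 36.1 CPM in obese libraries, against 24.0, 25.7, 33.5, 36.3 and 23.9 CPM in lean libraries. Obese replicates 1 and 5 lay just under lean replicate 4 and the others above every lean library, and the log2 value was 0.62 ± 0.17 (adjusted p = 0.0315). Gpx8 overlaps Cdc20b in the annotation, and whether the counting used strand is not given in the sources used here. After weight loss Gpx7 had 29.7, 33.6, 34.9 and 46.6 CPM, a log2 value of -0.50 ± 0.18 against obese fat (adjusted p = 0.214), and Gpx8 had 39.1, 31.7, 45.7 and 41.5 CPM, with -0.16 ± 0.18 (adjusted p = 0.764). The Gpx7 call was lost without lean replicate 2 (adjusted p = 0.0756), lean replicate 4 (0.0839) or obese replicates 3, 4 or 5 (0.0934, 0.0711 and 0.0795). That of Gpx8 was lost without lean replicates 1, 2 or 5 (0.0647, 0.0759 and 0.0781) or obese replicates 2, 3 or 4 (0.0563, 0.0845 and 0.0853).

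Gpx6, which neighbours the epididymal gene Gpx5 on chromosome 13, was barely detected. Obese replicates 2, 4 and 5 held 1.77, 0.942 and 1.55 CPM and lean replicate 1 held 0.892 CPM, the 4 libraries richest in epididymal markers. All 4 weight loss libraries held 0 counts, which allows up to 0.136 to 0.169 CPM, and no other library exceeded 0.142 CPM. Gpx5 reached 1981, 89.9 and 1587 CPM in those obese libraries and 739 CPM in that lean library, and 0 CPM in every weight loss library. Obese replicate 3 held 94.3 CPM of Gpx5, above obese replicate 4, but 0.0543 CPM of Gpx6. Gpx6 did not pass in weight loss against obese fat (adjusted p = 0.165), although DESeq2's Wald test called it (adjusted p = 0.0372).

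Prdx4 is the peroxiredoxin of the endoplasmic reticulum (chromosome X, 155323918 to 155342272). It stood at 43.1, 39.3, 60.4, 61.1 and 50.0 CPM in obese libraries, against 25.9, 19.9, 27.8, 28.1 and 19.4 CPM in lean libraries. The groups did not overlap, and obese fat was 2.09-fold higher, a log2 value of 1.07 ± 0.18 (adjusted p = 0.00218), which held without each library in turn. Weight loss libraries held 36.1, 30.1, 52.7 and 41.3 CPM. Each was above every lean library, but the log2 value of 0.73 ± 0.19 did not pass over all genes (adjusted p = 0.151), and neither did that of -0.34 ± 0.19 against obese fat (adjusted p = 0.448). DESeq2's Wald test called Prdx4 in weight loss against lean fat (adjusted p = 0.0319).

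Prdx1, a peroxiredoxin of the cytosol, stood at 356, 363, 411, 429 and 416 CPM in obese libraries, against 307, 218, 278, 314 and 211 CPM in lean libraries. These groups did not overlap either, with a log2 value of 0.57 ± 0.14 (adjusted p = 0.0186). The call was lost without lean replicate 2 (adjusted p = 0.0508), and Prdx1 overlaps the annotated gene AV051173. In weight loss libraries Prdx1 had 252, 291, 281 and 374 CPM, a log2 value of -0.40 ± 0.15 against obese fat that did not pass (adjusted p = 0.218).

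Prdx6, the most abundant peroxiredoxin per kb, had 439, 738, 499 and 931 CPM in weight loss libraries, against 765, 690, 874, 948 and 971 CPM in obese and 730, 803, 860, 673 and 833 CPM in lean libraries. Weight loss libraries ran from the lowest values of all to within the obese range, and no comparison passed. Prdx5, a peroxiredoxin of mitochondria, peroxisomes and cytosol, averaged 296 ± 66 CPM in weight loss, 404 ± 108 CPM in obese and 283 ± 19 CPM in lean fat, and obese against lean did not pass (adjusted p = 0.0766). Prdx5 did pass there by DESeq2's Wald test (adjusted p = 0.0425) and without obese replicate 1 (0.0283). Prdx2 and the mitochondrial Prdx3 did not pass, with log2 values of 0.01 ± 0.15 and -0.36 ± 0.18 in obese against lean fat. Prdx6b was scarce, at 0.886 ± 0.53 CPM in weight loss, 1.09 ± 1.2 CPM in obese and 0.930 ± 0.66 CPM in lean fat, and did not pass. Srxn1, sulfiredoxin, which repairs over-oxidised peroxiredoxins, had 41.0, 52.8, 40.4, 67.4 and 39.7 CPM in obese libraries, against 34.6 to 39.6 CPM in lean libraries. Those groups did not overlap by a small margin, and the log2 value of 0.40 ± 0.14 did not pass (adjusted p = 0.0906).

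Sod3, the extracellular superoxide dismutase (chromosome 5, 52363804 to 52369738), stood at 787, 824, 743, 703 and 702 CPM in obese libraries, against 443, 431, 459, 435 and 582 CPM in lean libraries. Every obese library lay above every lean library, with a log2 value of 0.68 ± 0.13 (adjusted p = 0.00547) that held without each library in turn. Weight loss libraries ran from the lean range into the obese range, at 797, 565, 649 and 488 CPM, and differed from obese fat by -0.27 ± 0.14 (adjusted p = 0.415) and from lean fat by 0.41 ± 0.14 (adjusted p = 0.279). The extracellular enzymes Sod3 and Gpx3 thus passed in opposite directions in obese against lean fat.

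Sod1, the most abundant gene of the set per kb, had 986, 1036, 1016 and 1665 CPM in weight loss libraries, against 727, 810, 1177, 851 and 995 CPM in obese and 971, 1329, 1410, 1381 and 1499 CPM in lean libraries. Obese libraries were mostly below lean libraries but overlapped them, and the log2 value of -0.53 ± 0.17 did not pass (adjusted p = 0.0685). Sod1 did pass by DESeq2's Wald test (adjusted p = 0.0245), with library size alone as the scaling (0.0485), with only these groups in the fit (0.0437), and without lean replicate 1 (0.0371), obese replicate 3 (0.0456) or weight loss replicate 4 (0.0257). Sod2, the mitochondrial dismutase, averaged 168 ± 25 CPM in weight loss, 228 ± 32 CPM in obese and 201 ± 20 CPM in lean fat. Its log2 value of -0.44 ± 0.13 in weight loss against obese fat did not pass (adjusted p = 0.125), although DESeq2's Wald test called it (adjusted p = 0.0386). Cat, catalase of peroxisomes, had 695, 752, 693 and 749 CPM in weight loss libraries, against 674, 630, 627, 585 and 535 CPM in obese libraries. These did not overlap, yet the difference was small (log2 0.24 ± 0.10) and did not pass (adjusted p = 0.282). In all, 4 genes had no overlap between weight loss and obese libraries, or 7.41%, all above obese fat, against 6.65% of all genes, 3.38% above and 3.27% below.

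The theta-class glutathione S-transferase genes lie side by side on chromosome 10, in the order Gstt3 (75774117 to 75781422), Gstt1 (75783813 to 75798584), Gstt4 (75814943 to 75822566) and Gstt2 (75831842 to 75837419). Gstt1, Gstt2 and Gstt3 passed in obese against lean fat. Counts of those 3 genes were fractional in 14 of 14 libraries and those of Gstt4 in 9. Counts of genes outside the transferases, such as Cat and Sod2, were fractional in 14 of 14 too, so fractions do not single out sharing between related genes. Whether reads were shared out between the theta-class genes, and by what rule, is not given in the sources used here. Gstt1 had 109, 144, 109 and 145 CPM in weight loss libraries, against 87.0, 83.7, 88.7, 74.9 and 88.5 CPM in obese and 133, 135, 138, 113 and 167 CPM in lean libraries. Every obese library was below every library of the other groups. Obese fat was lower than lean fat by a log2 value of -0.70 ± 0.12 (adjusted p = 0.00306), and weight loss fat was 1.5-fold above obese fat (log2 0.58 ± 0.13, adjusted p = 0.0344).

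Gstt2 had 145, 107, 147 and 176 CPM in weight loss libraries, against 67.1, 78.8, 82.3, 64.5 and 100 CPM in obese and 99.2, 129, 128, 139 and 201 CPM in lean libraries. Obese libraries lay below all weight loss libraries and met the lean range only at obese replicate 5. The log2 values were 0.87 ± 0.19 for weight loss against obese fat (adjusted p = 0.0376) and -0.82 ± 0.19 for obese against lean fat (adjusted p = 0.0134). Gstt3 had 25.1, 42.7, 29.1, 41.9 and 34.9 CPM in obese libraries, against 57.0, 47.6, 49.3, 68.3 and 69.2 CPM in lean libraries. These did not overlap (log2 -0.74 ± 0.20, adjusted p = 0.0291). Weight loss libraries held 30.0, 49.7, 32.8 and 55.1 CPM of Gstt3, which did not pass against obese fat (log2 0.27 ± 0.21, adjusted p = 0.632). Gstt4 was scarce, at 1.56 ± 0.39 CPM in weight loss, 0.528 ± 0.35 CPM in obese and 1.24 ± 1.0 CPM in lean fat, and did not pass.

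Between obese and lean fat the Gstt1 and Gstt2 calls held without each library in turn, and that of Gstt3 was lost without obese replicates 1 or 3 (adjusted p = 0.0662 and 0.0673) or lean replicates 4 or 5 (0.0609 and 0.073). In weight loss against obese fat, the Gstt1 call was lost without weight loss replicates 2 or 4 (0.113 and 0.1), lean replicate 2 (0.0538) or any of obese replicates 1 to 5 (0.0635, 0.0723, 0.0818, 0.0982 and 0.0663). The Gstt2 call was lost without weight loss replicates 1, 3 or 4 (0.0753, 0.092 and 0.103), lean replicates 2 or 4 (0.0534 and 0.0588) or obese replicates 1 to 4 (0.0843, 0.0779, 0.0869 and 0.103).

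The alpha class gave 1 further call. Gsta4, known for conjugating the lipid peroxidation product hydroxynonenal (chromosome 9, 78191966 to 78209349), had 32.8, 34.9, 41.4, 34.1 and 47.4 CPM in obese libraries, against 63.8, 66.9, 79.3, 72.7 and 57.2 CPM in lean libraries. The groups did not overlap, with a log2 value of -0.83 ± 0.21 (adjusted p = 0.0247), lost without obese replicates 1, 2 or 4 (0.0574, 0.0615 and 0.0592). Gsta3 had 104, 83.8, 133, 142 and 132 CPM in obese libraries, against 173, 209, 228, 263 and 203 CPM in lean libraries, again with no overlap, but did not pass (log2 -0.86 ± 0.26, adjusted p = 0.0524). Gsta3 did pass by DESeq2's Wald test (adjusted p = 0.0106), by limma-voom (0.0252), with only these groups in the fit (0.00671), with genes of at least 1 CPM in 5 libraries (0.0441), and without weight loss replicates 1, 3 or 4 (0.0249, 0.0453 and 0.0259). Weight loss libraries spanned both ranges for both genes, with 27.5, 54.1, 43.8 and 77.9 CPM of Gsta4 and 77.5 to 239.7 CPM of Gsta3. Gsto2, an omega-class enzyme that reduces dehydroascorbate, had 1.27, 2.61, 3.04, 2.15 and 3.35 CPM in obese libraries, against 5.13, 5.53, 4.52, 6.90 and 3.62 CPM in lean libraries (log2 -1.04 ± 0.28, adjusted p = 0.0287). These low levels did not overlap, and the call was lost without obese replicates 1, 2 or 4 (0.0539, 0.0599 and 0.0685) or lean replicates 2 or 4 (0.0548 and 0.0688). In weight loss libraries Gsto2 had 4.86, 4.58, 3.30 and 5.34 CPM, a log2 value of 0.86 ± 0.29 above obese fat that did not pass (adjusted p = 0.173).

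No transferase of the mu, pi, kappa or zeta class passed in any comparison, nor did Gsto1. Counts of the mu, pi and alpha genes were fractional too, as were those of Cat and Sod2. How reads were split between paralogs is not given, so that split is uncertain. Gstm1, the most abundant transferase per kb, had 1292, 1110, 1118 and 1190 CPM in weight loss libraries, against 1022, 1184, 1039, 1227 and 898 CPM in obese and 1132, 982, 907, 1279 and 1328 CPM in lean libraries. Its ranges overlapped. Among genes over 3 CPM in obese fat, Gstm7 had the widest ratio of highest to lowest library in each group, from 12.7 to 135 CPM in weight loss, from 49.7 to 395 CPM in obese and from 13.6 to 153 CPM in lean libraries. Its neighbours Gstm5 and Gstm6 had their lowest weight loss level in the same library as Gstm7, replicate 1, at 31.4 and 7.90 CPM, and their lowest lean level in replicate 2, at 41.7 and 4.26 CPM. Gstp1, the main pi-class enzyme, averaged 277 ± 75 CPM in weight loss, 259 ± 43 CPM in obese and 338 ± 34 CPM in lean fat, and Gstz1, which acts in tyrosine breakdown and overlaps Pomt2, averaged 592 ± 185, 574 ± 89 and 699 ± 72 CPM in the same order. Gstk1, the kappa-class enzyme of mitochondria and peroxisomes, had 77.0 to 102 CPM in weight loss, 86.3 to 103 CPM in obese and 80.0 to 109 CPM in lean libraries. Gstm2 averaged 310, 393 and 405 CPM, Gstm4 35.0, 39.3 and 35.2 CPM and Gsto1 85.8, 89.7 and 90.2 CPM in the order weight loss, obese and lean. Gstp2 averaged 8.62, 8.63 and 8.43 CPM and Gstp3 1.17, 0.986 and 1.22 CPM in that order. Gsta1 and Gstm3, which were not tested, stayed at or under 0.142 and 0.942 CPM in every library.

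Microsomal transferases did not pass either. Mgst1, the most abundant of them per kb, had 424, 510, 775 and 587 CPM in weight loss libraries, against 385, 419, 449, 481 and 542 CPM in obese and 403, 486, 608, 508 and 369 CPM in lean libraries. Mgst3 averaged 318 ± 51 CPM in weight loss, 238 ± 49 CPM in obese and 298.5 ± 48 CPM in lean fat, and Mgst2, which can make leukotriene C4, averaged 27.8 ± 9.6, 25.7 ± 6.4 and 37.4 ± 9.3 CPM in the same order.

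**Figure D2:**
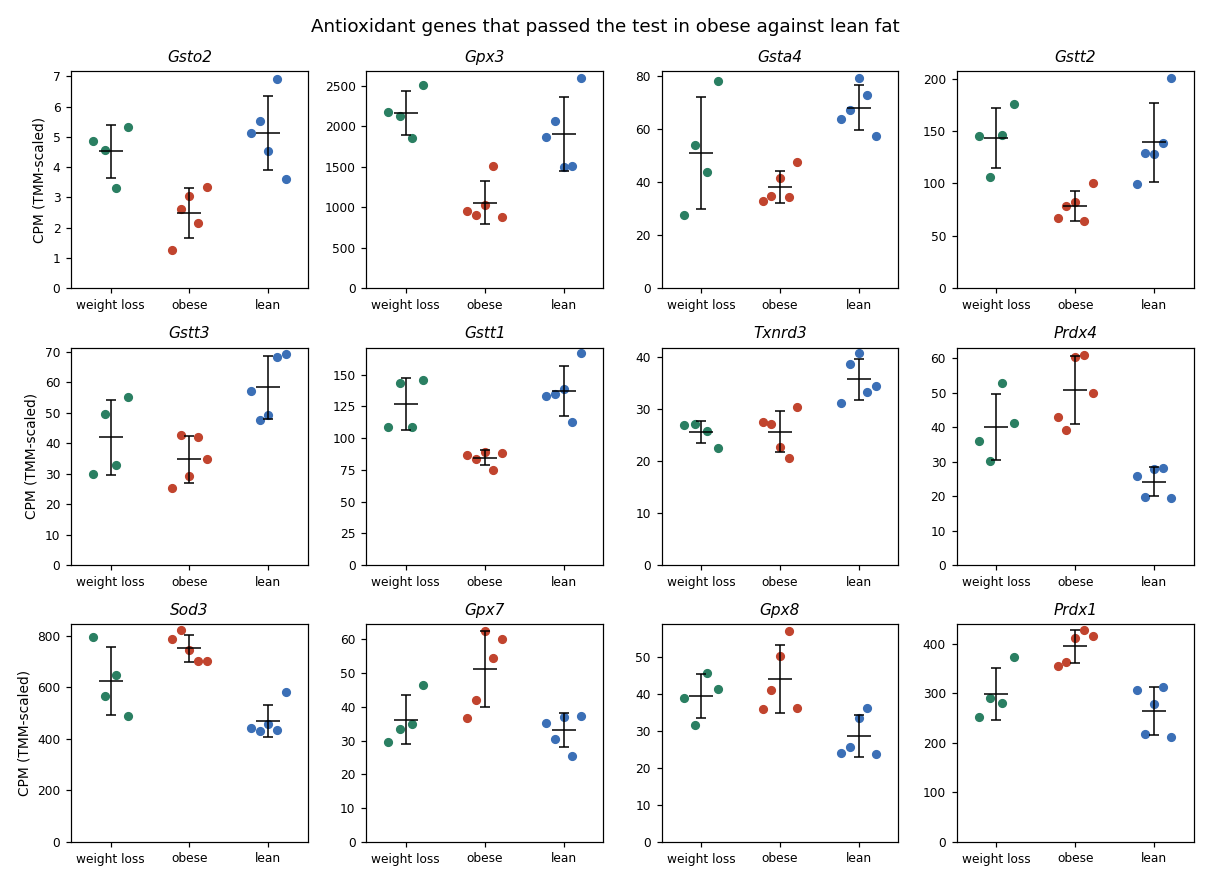
Level in CPM (y axis, from 0) of the 12 genes that passed in obese against lean fat, with 1 point per library and the mean ± SD in black for 4 weight loss, 5 obese and 5 lean libraries. Gpx3, Gstt1 and Gstt2 are low in obese fat with every weight loss library above it, whereas Txnrd3 stands near 25.5 CPM in weight loss and 25.7 CPM in obese fat, below the lean mean of 35.7 CPM.

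In the thioredoxin system only Txnrd3 passed. It encodes a thioredoxin reductase that also acts on glutathione disulfide (chromosome 6, 89643988 to 89675529), and had 27.4, 27.0, 22.7, 20.6 and 30.4 CPM in obese libraries, against 31.2, 38.7, 40.8, 33.2 and 34.5 CPM in lean libraries. The groups did not overlap, with a log2 value of -0.47 ± 0.12 (adjusted p = 0.0279), and the call was lost without lean replicates 2 or 3 (0.0634 and 0.0517) or obese replicates 2, 3 or 4 (0.0553, 0.07 and 0.0712). Weight loss libraries, at 26.8, 27.0, 25.8 and 22.5 CPM, lay below every lean library (log2 -0.48 ± 0.13), which did not pass over all genes (adjusted p = 0.189) but did in DESeq2's Wald test (adjusted p = 0.0319). Against obese fat the log2 value was -0.01 ± 0.13. Txnrd1 of the cytosol and Txnrd2 of mitochondria had log2 values of -0.21 ± 0.13 and 0.04 ± 0.14 in obese against lean fat and did not pass.

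Txnip, the thioredoxin-binding protein that responds to glucose, was the most abundant gene of the system per kb. It had 1231, 1191, 1268 and 630 CPM in weight loss libraries, against 984, 935, 1047, 1028 and 982 CPM in obese and 774, 832, 789, 671 and 714 CPM in lean libraries. Every obese library exceeded every lean library, and weight loss replicates 1 to 3 exceeded all of them, while weight loss replicate 4 lay below every lean library. No comparison passed, with log2 values of 0.12 ± 0.16 for weight loss against obese, 0.52 ± 0.16 for weight loss against lean and 0.40 ± 0.15 for obese against lean fat (adjusted p = 0.82, 0.253 and 0.12). With only the obese and lean libraries in the fit, Txnip passed in obese against lean fat (log2 0.39 ± 0.09, adjusted p = 0.017). Without weight loss replicate 4, Txnip passed in weight loss against lean fat (log2 0.67 ± 0.10, adjusted p = 0.0082) and in obese against lean fat (log2 0.37 ± 0.09, adjusted p = 0.0163). Over all genes, leaving out that library took the calls in weight loss against lean fat to 130 of 15423, against 5 of 15208 with it. Txnip overlaps the annotated gene Gm15441. Thioredoxin itself did not pass, with Txn1 at 307 ± 49 CPM in weight loss, 328 ± 34 CPM in obese and 287 ± 56 CPM in lean fat, nor did the mitochondrial Txn2.

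None of the 4 genes of glutathione synthesis and reduction passed. Glutathione reductase, Gsr, had 70.7, 99.8, 102 and 82.9 CPM in weight loss libraries, against 67.0, 70.9, 69.6, 65.7 and 53.4 CPM in obese and 76.2, 65.1, 109, 90.01 and 98.0 CPM in lean libraries. Obese libraries were at the low end, with a log2 value of -0.42 ± 0.15 against lean fat (adjusted p = 0.0836). Gsr did pass there by DESeq2's Wald test (adjusted p = 0.0398) and without lean replicate 2 (0.0374). Gss averaged 30.2 ± 3.2 CPM in weight loss, 36.8 ± 3.5 CPM in obese and 29.4 ± 2.4 CPM in lean fat (log2 0.32 ± 0.11 in obese against lean, adjusted p = 0.0695). In that comparison Gss did pass by DESeq2's Wald test (adjusted p = 0.046), by limma-voom (0.0467) and without lean replicate 3 (0.0473). Gclc and Gclm had log2 values of -0.29 ± 0.23 and 0.17 ± 0.24 in obese against lean fat.

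Nfe2l2, Keap1 and the quinone reductase gene Nqo1, a classical NRF2 target, did not pass in any comparison. Keap1, the most abundant of them per kb, had 120, 89.2, 91.3 and 126 CPM in weight loss libraries, against 104, 105, 103, 96.8 and 104 CPM in obese and 109, 114, 101, 118 and 123 CPM in lean libraries. Nfe2l2 averaged 73.1 ± 27 CPM in weight loss, 55.1 ± 5.4 CPM in obese and 62.9 ± 28 CPM in lean fat, and Nqo1 stood at 6.92 ± 2.4, 7.97 ± 4.7 and 8.84 ± 2.7 CPM in the same order. Of 21 further NRF2 targets, 20 were tested. In obese against lean fat Akr1b8 rose (log2 0.37 ± 0.09, adjusted p = 0.0216) and Tkt, transketolase, fell (log2 -0.80 ± 0.22, adjusted p = 0.0313). Over all genes 5.86% were higher and 3.85% lower there, so these calls are near the share over all genes. The median of the list was -0.06, against -0.02 over all genes. After weight loss 1 fell against obese fat, Pgd of the pentose phosphate pathway (log2 -0.70 ± 0.16, adjusted p = 0.0435), while 0.881% of all genes were lower. The most abundant of the list per kb was Ftl1, ferritin light chain, at 3532 CPM per kb.

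**Figure D3:**
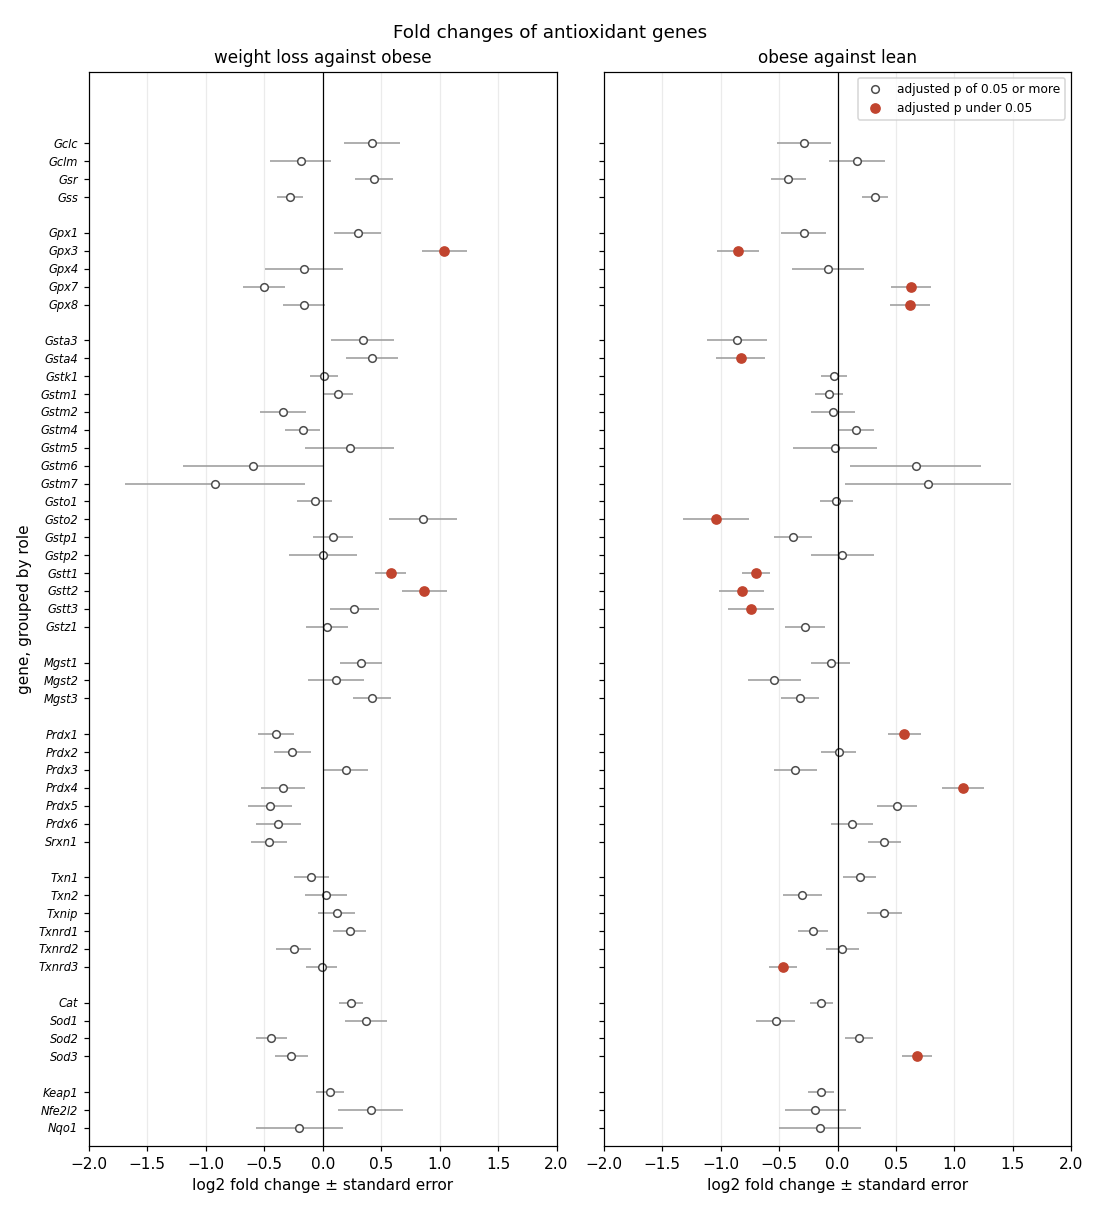
Log2 fold change ± standard error (x axis) of the 49 tested genes with a group mean of at least 3 CPM, grouped by role, for weight loss against obese and obese against lean fat. Filled points passed: 3 in the first comparison and 12 in the second, with Gpx3, Gstt1 and Gstt2 on opposite sides of 0.

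In weight loss against lean fat, 7 of the 54 genes reached an unadjusted p below 0.05, or 13%, against 11.4% of all genes. They were Prdx4, Txnrd3, Txnip, Sod3, Gpx8, Gstt3 and Gsta2. DESeq2's Wald test called 2 of the 54 genes and 243 of all 15208, and limma-voom with quality weights per sample called 0 of the 54 and 3 of all. No overlap between libraries was seen for 2 genes, Prdx4 above and Txnrd3 below lean fat, or 3.7%, against 2.29% of all genes, 1.58% above and 0.704% below. Gsta2 was 0 in weight loss replicates 1 to 3 and 0.694 CPM in replicate 4, against 0 to 8.45 CPM in lean libraries.

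Among genes that supply, recycle or oppose these enzymes, the list of NADPH oxidases and other oxidant producers had the most calls in obese against lean fat. Of its 15 genes 12 were tested, 6 rose and 1 fell, while 5.86% of all genes were higher and 3.85% lower. The median log2 value was 0.91, against -0.02 over all genes. The phagocyte oxidase subunits Ncf1 (log2 1.37 ± 0.25, adjusted p = 0.00394) and Ncf4 (log2 1.15 ± 0.26, adjusted p = 0.0138) were higher, as was Duox1 at 3.10 ± 0.87 CPM in obese and 0.365 ± 0.27 CPM in lean fat. Maob, a monoamine oxidase that releases hydrogen peroxide, was the gene that fell (log2 -0.69 ± 0.20, adjusted p = 0.0442), and is named for that after its values were seen. Macrophage markers, 7 of 10 of them higher in obese fat, moved with these subunits, and their part was not tested. After weight loss 0 of the 12 passed against either group, with 35.4 ± 13 CPM of Ncf1 in weight loss, 39.6 ± 8.3 CPM in obese and 15.2 ± 4.8 CPM in lean fat. The most abundant of the list per kb, Cyba, stood at 74.9, 79.0 and 58.2 CPM in the same order and did not pass.

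Sephs2, which makes the selenium donor for selenoproteins such as Gpx3, was called in the same comparisons and directions as Gpx3. It averaged 199 ± 71 CPM in weight loss, 112 ± 14 CPM in obese and 202 ± 35 CPM in lean fat, with log2 values of 0.83 ± 0.19 for weight loss against obese (adjusted p = 0.0457) and -0.85 ± 0.18 for obese against lean fat (adjusted p = 0.0108). It was the only call among 16 tested genes of selenium handling and other selenoproteins in both comparisons, and the most abundant per kb, Selenow, did not pass. Of 22 genes of glutathione supply and breakdown and glutaredoxins, 1 rose and 1 fell in obese against lean fat. Oplah, which recycles oxoproline to glutamate, fell (log2 -0.93 ± 0.20, adjusted p = 0.0111) and Esd, which frees glutathione from formaldehyde adducts, rose (log2 0.42 ± 0.12, adjusted p = 0.049). Glo1, the most abundant per kb, did not pass. Of 15 genes of NADPH supply, the NAD kinase gene Nadk fell in obese against lean fat (log2 -0.38 ± 0.10, adjusted p = 0.0351). Pgd, the most abundant per kb, fell in weight loss against obese fat. Of 11 tested methionine sulfoxide reductases and related thiol enzymes, Txndc17 rose in obese against lean fat (log2 0.57 ± 0.15, adjusted p = 0.0243). None of these lists had a call in weight loss against lean fat, where 0.0329% of all genes passed. Over all genes 5.86% were higher and 3.85% lower in obese against lean fat. In weight loss against obese fat 0.736% of all genes were higher and 0.881% lower. So few calls in lists this short cannot be read as particular to the lists.

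**Figure D4:**
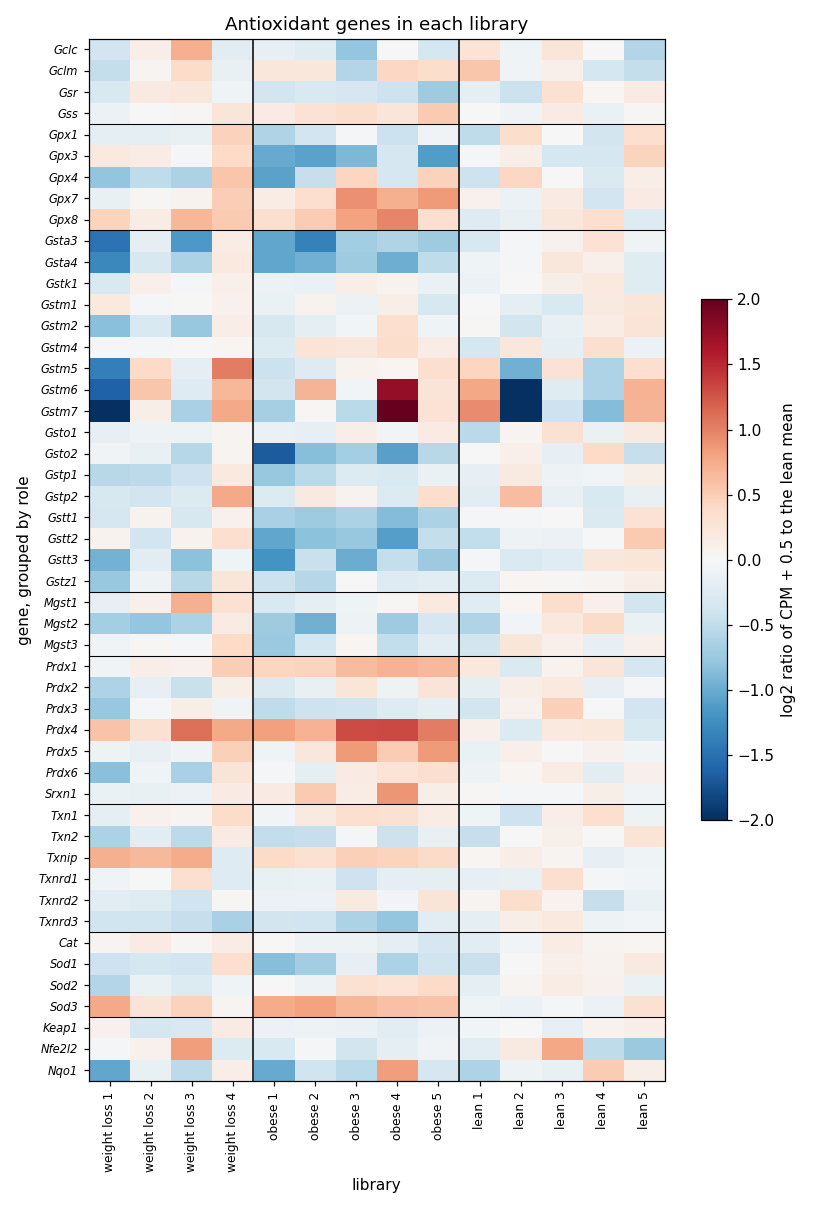
Log2 ratio of each library's CPM (plus 0.5) to the lean mean for the same 49 genes (rows, grouped by role) in 4 weight loss, 5 obese and 5 lean libraries (columns). Gpx3 and the theta-class rows are blue across obese libraries, Prdx4 and Sod3 are red, and weight loss replicate 4 departs from the other weight loss libraries in rows such as Txnip (630 against 1191 to 1268 CPM).

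Obese libraries made up 3 of the 4 libraries rich in epididymal transcripts, so the values were also taken without those 4, which left 4 weight loss, 2 obese and 4 lean libraries. None of the 54 genes passed there in any comparison, while over all 15420 genes tested 20 passed in weight loss against obese, 0 in weight loss against lean and 125 in obese against lean fat, fewer than the 246, 5 and 1477 of all libraries. The log2 values of the 12 genes in obese against lean fat kept their direction, with -0.95 for Gpx3, -0.65 for Gstt1, -1.0 for Gstt2, 1.12 for Prdx4 and 0.68 for Sod3 (adjusted p = 0.103, 0.164, 0.0967, 0.0716 and 0.158). In weight loss against obese fat they were 1.13 for Gpx3, 0.53 for Gstt1 and 0.94 for Gstt2 (adjusted p = 0.166, 0.701 and 0.332). With the epididymal level as a covariate 6 of the 12 passed in obese against lean fat, Gpx3, Gsto2, Gstt1, Gstt3, Prdx4 and Sod3, and none passed in weight loss against obese fat, with 584 and 30 of all 15208 genes passing in these comparisons. In the second, Gpx3 had a log2 value of 0.98 (adjusted p = 0.235).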

How the data were processed

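Poly(A) RNA of 15 perigonadal fat samples was sequenced. The authors deposited 1 unnormalized table of expected counts by Entrez ID, of which 34.8% were not whole. The build is mm10 per the submitters' processing notes. Aligner, counting tool and strand setting: not given in the sources used here. The table had 36172 lines for 35794 IDs, and lines of the same ID were summed. Symbols came from RefSeq (32919 IDs) and GENCODE M21 (24), and transcript lengths from GENCODE M21. Expected counts were rounded. Weight loss replicate 5 held under the minimum of 1000000 counts and was left out. edgeR 4.0.16 in R 4.3.3 (filterByExpr, TMM, glmQLFit, glmQLFTest) fitted all 3 groups of 14 libraries together, two-sided, with Benjamini-Hochberg adjustment over 15208 genes and a threshold of 0.05. The standard error is the absolute log2 value over the square root of F. The test was checked on simulated data. Over the comparisons it found 30.1% to 36.5% of genes given a 2-fold change and 1.98% to 3.53% of those given a 1.5-fold change. The changed genes were drawn at random from all 15208 genes, so these shares are averages and not those of the members. A gene that did not pass may still differ, within what its own standard error allows.

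The members, marker and related lists were chosen with earlier results of these data known. All members are described by role, with values in every library for those called and for the most abundant of each role per kb. A gene of a related list that the naming rule picks is not reported here. Further members are so given where their groups nearly or fully separated. Alternatives were DESeq2 1.42.0, limma 3.58.1, other scalings and filters, only the groups compared, a replicate block, epididymal markers, and each library left out. Python 3.11.15 made tables and plots.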

Additional observations from a re-analysis of the deposited data

Results flagged for a closer look

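A library was singled out where its gap to the nearest other library of its group, over the group's range, passed Dixon's 95% value. Of 162 gene and group pairs 21 did so. The rule is set to flag about 1 in 20 of independent, normally spread values, which genes of the same library are not. The share over all genes was not taken, so 21 cannot be read as an excess particular to these genes. Weight loss replicate 4 accounted for 11. It stood above the others for Sod1 (1670 CPM), Gpx1 (1460 CPM), Gpx4 (794 CPM), Gstp1 (389 CPM), Gstp2 (14.6 CPM), Mgst2 (42.0 CPM), Mgst3 (394 CPM), Prdx5 (394 CPM), Srxn1 (40.9 CPM) and Gsta2 (0.694 CPM), and below them for Txnip (630 CPM). Its summed adipocyte markers were 50980 CPM, against 35160 to 39860 CPM in the other weight loss libraries. Its muscle markers summed to 673 CPM, against 168 to 207 CPM, and its epididymal markers to 63.5 CPM, against 0.790 to 5.24 CPM. Its endothelial (607 CPM) and progenitor (1007 CPM) sums were the lowest, against 791 to 1143 and 1239 to 1905 CPM. The part of these cell types was not tested.

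Obese replicate 4 was apart for Keap1 (96.8 CPM, the lowest), Nqo1 (16.2 CPM), Gstm7 (395 CPM) and Gpx3 (1520 CPM), and obese replicate 3 was lowest for Gclm (8.52 CPM) and Txnrd1 (44.1 CPM). Among lean libraries, Gstp2 was highest in replicate 2 (13.2 CPM), Gpx6 in replicate 1 (0.892 CPM), Sod3 in replicate 5 (582 CPM) and Txnrd1 in replicate 3 (74.8 CPM).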

How the results depend on the processing

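In obese against lean fat 12 genes of the set were called. The count was 17 with DESeq2's Wald test, 15 with only the groups compared, 14 with limma-voom, 6 with the epididymal level as a covariate, 0 without the 4 libraries richest in epididymal markers, and 7 to 15 when each of the 14 libraries was left out in turn, with 7 without obese replicate 4 and 8 without lean replicate 2 or obese replicate 2. Over all genes, 1477 were called, 2260 with DESeq2, 1572 with only the groups compared, 1935 with limma-voom, 584 with the covariate, 125 without the 4 libraries and 849 to 1673 without single libraries. In weight loss against obese fat 3 were called. The count was 5 with DESeq2's Wald test, 0 with the epididymal covariate, 0 without those 4 libraries, and 1 to 3 without single libraries, with 1 (Gpx3) without obese replicates 1, 2, 3 or 4, lean replicate 2 or weight loss replicate 4. Over all genes it was 246, and 691, 30, 20 and 141 to 265 in that order. In weight loss against lean fat 0 were called, 2 with DESeq2 and 0 to 1 without single libraries, the 1 being Txnip without weight loss replicate 4. Over all genes 5 were called, 243 with DESeq2 and 0 to 130 without single libraries, with 130 without weight loss replicate 4. No log2 value of a called gene changed sign under any of the 24 alternatives. Leaving out the 4 libraries took away those richest in epididymal markers and also kept only 2 obese libraries, which cannot be told apart. The cause of the changes between alternatives was not tested. Replicate numbers are shared between groups, and the labels do not say what they stand for. Deviations of same-numbered libraries from their group means correlated at -0.553 to 0.399 over 13 pairs, against -0.467 to 0.604 for other pairs. These ranges cannot settle whether same-numbered libraries share more than a number. With the replicate block 13 genes were called in obese against lean fat, 2 in weight loss against obese and 0 in weight loss against lean fat. Gsto2 (adjusted p = 0.0568) and, in weight loss against obese fat, Gstt1 (0.0528) were lost there, and Gsta3 (0.036) and Sod1 (0.0436) were gained in obese against lean fat. Depth limits the genes under about 1 CPM, such as Gpx2, Gpx6, Gsta1 and Gstm3.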
